A study of Mus musculus with 12 samples.

Results

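The comparison set alpha cells against beta cells after the same treatment. Its members were chosen by their labels: the 3 arrays of aTC1 cells and the 3 arrays of bTC3 cells given GW8510, which are 6 of the 12 arrays of the series. aTC1 and bTC3 are mouse lines from islet tumours, the first making glucagon and the second insulin, and both tumours arose in transgenic mice in which the glucagon or the insulin promoter drove SV40 large T antigen, so every group carries that viral oncogene. GW8510, which the study describes as a putative CDK2 inhibitor, was given at 3.3 µM for 5 days. The other 6 arrays are of the same lines given the vehicle, DMSO, for 5 days, with 3 arrays per line, and all cells, treated or not, held 0.1% DMSO. The labels call the 3 arrays of a group biological replicates, of which p-values measure the spread. Cell type is represented by 1 line each, and the medium is described for aTC1 only, so that cell type, line and culture cannot be told apart. The question was which genes still separated the lines under GW8510, and whether treated alpha cells had gained genes of the beta line or kept the alpha state.

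Alpha and beta cells are sister endocrine cells of the pancreatic islet. Alpha cells make glucagon, which raises blood glucose, and beta cells make insulin, which lowers it. Each identity is held by transcription factors: Pdx1, Nkx6-1, Mnx1 and Pax4 favour the beta programme, Irx1, Irx2 and Pou3f4 mark alpha cells, and Pax6, Neurod1, Isl1 and Nkx2-2 act in both.

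The promoters of 5 genes are shown because the levels of these genes carry the comparison: Gcg (glucagon), Pdx1, Iapp (amylin, released with insulin), Sst (somatostatin, the delta cell hormone) and Slc2a2 (the glucose transporter of mouse beta cells). Each is the sense strand, 250 bases before to 50 after the transcription start, from RefSeq on GRCm38.p6. Capitals mark 3 motifs searched on both strands: TAAT or its reverse complement ATTA, the core read by homeodomain factors such as Pdx1 and Pax6; CAGATG or CATCTG, an E-box of the kind read by Neurod1; and the palindrome TGACGTCA, the cAMP response element.
Gcg, chr2:62483604-62483903, minus strand: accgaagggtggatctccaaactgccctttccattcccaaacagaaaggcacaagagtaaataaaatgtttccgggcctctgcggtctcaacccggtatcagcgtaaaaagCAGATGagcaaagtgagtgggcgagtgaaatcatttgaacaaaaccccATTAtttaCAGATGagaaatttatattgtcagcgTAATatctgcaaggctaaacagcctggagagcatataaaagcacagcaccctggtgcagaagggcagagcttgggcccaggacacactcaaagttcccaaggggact
Pdx1, chr5:147269847-147270146, plus strand: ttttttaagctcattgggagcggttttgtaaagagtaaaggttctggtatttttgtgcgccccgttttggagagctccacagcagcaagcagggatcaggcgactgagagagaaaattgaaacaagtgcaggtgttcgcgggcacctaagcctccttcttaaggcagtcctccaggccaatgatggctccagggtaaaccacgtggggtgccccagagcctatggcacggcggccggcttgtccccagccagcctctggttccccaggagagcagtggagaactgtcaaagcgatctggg
Iapp, chr6:142298175-142298474, plus strand: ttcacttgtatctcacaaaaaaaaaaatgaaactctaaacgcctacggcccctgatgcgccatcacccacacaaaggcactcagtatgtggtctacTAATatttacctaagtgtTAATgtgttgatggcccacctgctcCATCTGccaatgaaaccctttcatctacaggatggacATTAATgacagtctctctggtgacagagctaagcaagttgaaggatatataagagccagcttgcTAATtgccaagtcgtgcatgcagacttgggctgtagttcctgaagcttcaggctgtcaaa
Sst, chr16:23890795-23891094, minus strand: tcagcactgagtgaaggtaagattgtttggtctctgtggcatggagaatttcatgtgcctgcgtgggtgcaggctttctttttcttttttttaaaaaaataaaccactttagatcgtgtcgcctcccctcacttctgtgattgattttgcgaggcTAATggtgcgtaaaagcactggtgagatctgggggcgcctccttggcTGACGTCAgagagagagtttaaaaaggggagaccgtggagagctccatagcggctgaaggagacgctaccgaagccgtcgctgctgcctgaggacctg
Slc2a2, chr3:28697653-28697952, plus strand: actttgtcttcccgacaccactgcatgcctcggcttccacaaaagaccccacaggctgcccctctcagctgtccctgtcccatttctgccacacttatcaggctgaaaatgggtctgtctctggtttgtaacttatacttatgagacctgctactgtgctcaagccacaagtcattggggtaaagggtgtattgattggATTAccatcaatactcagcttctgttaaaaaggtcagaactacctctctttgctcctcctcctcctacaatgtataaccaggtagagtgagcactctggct

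The Gcg window held 2 homeodomain cores and 2 E-boxes. Iapp held 5 cores, of which ATTAAT counts as a pair of overlapping matches, and 1 E-box. Sst held 1 core and 1 cAMP response element, Slc2a2 held 1 core, and none of the motifs lay in the Pdx1 window. A core is common: 58.0% of the 32851 promoters in the table held one, 17.2% held the E-box and 1.79% the cAMP response element. Among promoters of the genes tested here (12449 promoters, 9783 genes) these shares were 45.4%, 12.6% and 2.52%. The genes at least 4-fold higher in alpha than in beta cells with DMSO, described below, had shares of 51.1%, 13.1% and 2.53% (237 promoters, 167 of 221 genes), and those at least 4-fold higher in beta cells 48.8%, 13.0% and 3.70% (324 promoters, 233 of 290 genes). These are counts of letters and do not show that a factor is bound.

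RNA was read on Affymetrix Mouse Genome 430A arrays, and the deposited intensities run from 20 to 20000, so that a gene at either end is known only as a limit. Each of 12255 genes was read from 1 probe set, and differences are between mean log2 intensities. The line difference is alpha minus beta, and the change of the line difference is its value with GW8510 minus its value with DMSO. Among treated arrays, 2 stood apart. Beta GW8510 replicate 3 had a median intensity of 199.7, against 173.5 to 181.9 on the other 11 arrays, and alpha GW8510 replicate 1 had 703 probe sets at the lower bound, against 739 to 1109 on the others. Arrays of one group correlated across genes at 0.994 or above, and treated alpha with treated beta arrays at 0.912 to 0.916.

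The 2 lines remained clearly different cells under GW8510. By limma, 3370 genes were higher in treated alpha cells (27.5% of those tested) and 3725 were higher in treated beta cells (30.4%), at an adjusted p under 0.05. At least 4-fold differences were fewer, with 229 genes higher in alpha (1.87%) and 307 higher in beta cells (2.51%). With DMSO the corresponding counts were 3547 (28.9%) and 3282 (26.8%), of which 221 (1.80%) and 290 (2.37%) reached 4-fold. Without alpha GW8510 replicate 1 the treated counts were 3211 and 3811, and without beta GW8510 replicate 3 they were 3618 and 3433, so which line had more genes higher depended on that array.

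Most line differences pointed the same way with and without the compound. Of the 12255 genes, 5309 (43.3%) passed in both comparisons in one direction, 2575 of them higher in alpha and 2734 higher in beta cells, and 312 passed in opposite directions. The line differences with GW8510 and with DMSO, which share no arrays, had a Pearson correlation of 0.869 across the 12255 genes, which are not independent replicates. The change of the line difference was itself called for 1475 genes toward alpha (12.0%) and for 2013 toward beta (16.4%). In 1993 of these genes the lines were further apart with GW8510 and in 1495 they were closer. Calls of a change toward alpha and beta were 1958 and 1932 with quantile scaling and 1827 and 1829 with median centring. Without beta GW8510 replicate 3 they were 1775 and 1804, so the excess toward beta depended on the scaling and on that array. The median absolute line difference was 0.27 with DMSO and 0.30 with GW8510, on the log2 scale. Treated alpha cells were not nearer to untreated beta cells than untreated alpha cells were: the median absolute difference from beta cells with DMSO was 0.33 for treated and 0.27 for untreated alpha cells.

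**Figure D1:**
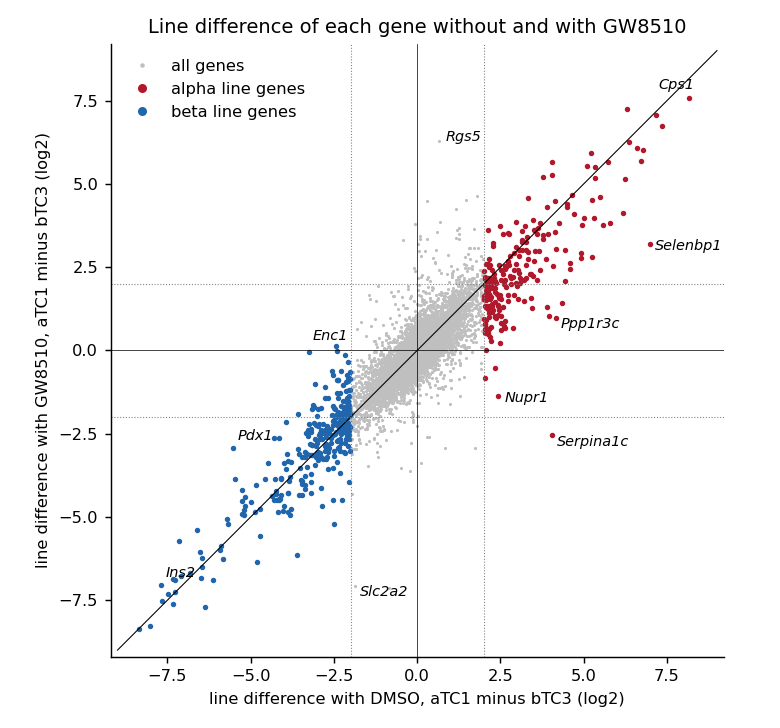
Line difference of each of 12255 genes (alpha minus beta, mean log2 intensity) with DMSO on the horizontal axis and with GW8510 on the vertical axis. Red points are the 221 genes at least 4-fold higher in alpha cells with DMSO, blue points the 290 at least 4-fold higher in beta cells, the diagonal marks equal differences and dotted lines mark 4-fold. Most colored points stay on their own side of 0, with Serpina1c and Nupr1 the red points furthest under it, while Rgs5 and Slc2a2 lie far off the diagonal.

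The alpha hormone gene stayed at the top of the scale in the treated alpha line. Gcg was at the upper bound of 20000 on all 6 alpha arrays, treated or not, so neither its true level nor a response of alpha cells can be read. In beta cells it was 6647, 6616 and 5997 with DMSO and 11927, 11305 and 12890 with GW8510. The treated lines did not overlap, and Gcg was at least 1.66-fold higher in treated alpha cells (log2 0.73 ± 0.06 SE, adjusted p = 3.47e-07, limma, n = 3 and 3). At the bound the alpha arrays have no spread, so the SE and p-values of Gcg hold that of the beta arrays alone and may be too small. Its line difference was 1.64 with DMSO, a bound as well, and the beta line rose by 0.91 on the log2 scale (adjusted p = 6.79e-07 by limma).

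The alpha cell transcription factors separated the treated lines too. Irx1 read 1270, 1191 and 1177 on the treated alpha arrays and 31.5, 29.4 and 43.1 on the treated beta arrays, against 2184, 2040 and 2029 in alpha cells with DMSO. It was 35.5-fold higher in treated alpha cells (log2 5.15 ± 0.15 SE, adjusted p = 3.1e-11 by limma), although alpha cells lost 0.78 on the log2 scale under GW8510 (adjusted p = 0.000946 by limma). Irx2 behaved alike, at 1322, 1440 and 1370 in treated alpha and 283, 277 and 320 in treated beta cells, a line difference of 2.23 on the log2 scale with a fall of 0.45 in alpha cells. Pou3f4 moved the other way. Its treated alpha arrays read 1103, 1045 and 782, above the 533, 498 and 529 of alpha cells with DMSO, and the treated beta arrays 113, 90 and 62.6, so that its line difference was 2.59 with DMSO and 3.49 with GW8510 on the log2 scale.

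Alpha cell genes as a list gave no one direction, in either condition. Of 13 measured members, 6 were higher in treated alpha cells, 4 were higher in treated beta cells and 3 did not pass, beside 27.5% and 30.4% of all genes, and with DMSO the counts were the same. The members higher in treated alpha cells were Gcg, Irx1, Irx2, Pou3f4, Slc7a2 (an amino acid transporter, log2 1.12) and Cryba2 (a crystallin, log2 1.32). Tm4sf4, a membrane protein of the tetraspanin-like L6 family, went against its list at 151, 99.1 and 137 in treated alpha cells and 3059, 2693 and 2605 in treated beta cells (log2 -4.45 ± 0.18 SE, adjusted p = 5.45e-10 by limma). Nxph1 (log2 -2.20), Slc38a5 (log2 -1.55) and Smarca1 (log2 -1.34) were also higher in the beta line. Ttr, the thyroxine carrier transthyretin, could not be ranked: it read 19984, 19666 and 20000 in treated alpha cells and 20000 on all beta arrays, and its other 2 probe sets gave line differences of -1.10 and -0.52. It rose in alpha cells from 8305, 7864 and 8884 with DMSO, by at least 1.25 on the log2 scale. Gria3 (log2 0.27, adjusted p = 0.0659) and Sstr2 (log2 -0.30, adjusted p = 0.0569) did not pass by limma. Within the alpha line, 2 members of the list rose with GW8510 (Ttr and Pou3f4) and 4 fell, beside 20.2% and 21.2% of all genes.

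**Figure D2:**
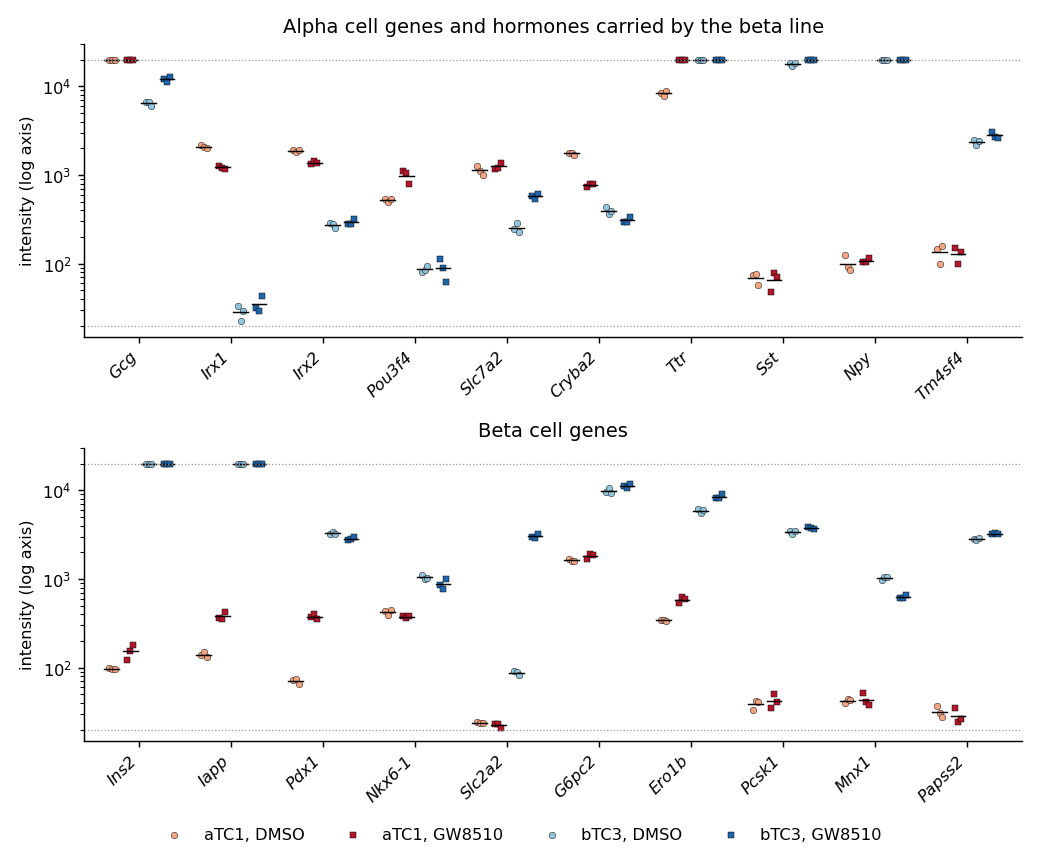
Intensity on each array (points, log axis) with the group mean (bar) for 20 genes in aTC1 and bTC3 cells with DMSO (circles) or GW8510 (squares), 3 arrays per group; dotted lines mark the bounds of 20 and 20000. The upper panel holds 8 alpha cell genes with Sst and Npy, the lower panel beta cell genes. Pdx1 in treated alpha cells lies between the untreated alpha and the beta arrays, Ins2 stays between 95.2 and 182 in alpha cells, and Slc2a2 is high only on the treated beta arrays.

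Beta cell genes separated the treated lines almost without exception. Of 22 measured members, 20 were higher in treated beta cells, against 30.4% of all genes. Rgs16, a regulator of G protein signalling, was higher in treated alpha cells (log2 1.49), and Dlk1, near the lower bound in both lines, did not pass (log2 0.03). The median line difference of the list was -4.34 with DMSO and -3.85 with GW8510 on the log2 scale, beside 0.05 and 0.00 over all genes. Ucn3, Mafa and Slc30a8 were not analysed here.

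Insulin itself stayed far apart. Ins2 read 123, 154 and 182 on the treated alpha arrays and 98.8, 96.5 and 95.2 on the alpha arrays with DMSO, while all 6 beta arrays were at 20000. The treated arrays lay above the untreated ones, a rise of 0.64 ± 0.11 (SE) on the log2 scale (adjusted p = 0.000323 by limma), and the gene was still at least 132-fold lower in treated alpha than in treated beta cells. Iapp rose further, from 140, 148 and 131 to 367, 350 and 429 in alpha cells, a rise of 1.45 on the log2 scale, against 20000 on every beta array. It stayed at least 52.5-fold lower than in treated beta cells, and its other 3 probe sets rose by 0.59 to 1.91 in alpha cells. Read from the brightest probe set under the upper bound, the change of its line difference was 0.96 and did not pass (adjusted p = 0.11 by limma). Because both genes are at the bound in the beta line, their line differences are limits and the changes of 0.64 and 1.45 hold the alpha cells' part alone. The beta arrays add no spread there, which lowers the SE and p-values of both genes. In bulk RNA, more expressing cells and more RNA per cell cannot be told apart.

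Pdx1 had the largest rise in alpha cells among the 22 beta cell genes. It read 73.1, 74.0 and 65.4 in alpha cells with DMSO and 368, 398 and 355 with GW8510, a 5.28-fold rise (log2 2.40 ± 0.07 SE, adjusted p = 1.51e-10 by limma). Beta cells read 3244, 3403 and 3181 with DMSO and 2779, 2808 and 2967 with GW8510. The line difference went from 46.3-fold with DMSO to 7.64-fold with GW8510, a change of 2.60 ± 0.09 (SE) on the log2 scale (adjusted p = 3.65e-09 by limma). On these arrays the treated alpha cells lay between both untreated lines and overlapped neither. A second probe set of Pdx1 rose less in alpha cells, by 0.54 on the log2 scale, and gave a treated line difference of -2.51.

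The other beta cell genes showed no common movement in alpha cells. In that line 6 of the 22 rose, beside 20.2% of all genes: Pdx1, Iapp, Ins2, Ero1b, Hadh and Rgs16. Ero1b, an oxidase that helps proinsulin fold, rose by 0.77 on the log2 scale and Hadh, a mitochondrial enzyme that restrains insulin secretion, by 0.68. Trpm5, a cation channel, and Ppp1r1a, a phosphatase inhibitor, fell. Nkx6-1 read 379, 362 and 384 in treated alpha cells and 433, 389 and 446 with DMSO, which did not pass (log2 -0.17, adjusted p = 0.164 by limma). Pcsk1, the proinsulin convertase, stayed near background in treated alpha cells at 35.4, 51.0 and 40.5, and was 89.8-fold higher in treated beta cells at 3816, 3774 and 3677. Cltrn, collectrin, was at the lower bound on all alpha arrays and at least 327-fold higher in treated beta cells.

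Slc2a2 moved the lines apart through the beta line. It read 91.6, 88.7 and 82.3 in beta cells with DMSO and 2993, 2876 and 3242 with GW8510, while the treated alpha arrays stayed at 23.2, 22.9 and 20.9. Its line difference was 3.66-fold with DMSO and 136-fold with GW8510, a change of 5.21 on the log2 scale toward beta (SE 0.09, adjusted p = 2.58e-11 by limma). In contrast, Nnat (neuronatin) fell in beta cells by 1.01 on the log2 scale, and its line difference was -6.62 with DMSO and -5.38 with GW8510.

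Some other islet hormone genes were high in the beta line. Sst read 20000 on all treated beta arrays and 48.3, 77.3 and 70.7 on the treated alpha arrays, at least 312-fold apart, and Npy (neuropeptide Y) was at 20000 on every beta array and at least 186-fold higher than in treated alpha cells. Gast (gastrin, log2 -6.00) and Sct (secretin, log2 -3.83) were higher in treated beta cells as well. Of 21 other islet hormone genes, 5 were higher in treated beta cells, 0 in treated alpha cells, and 16 did not pass, beside 30.4% and 27.5% of all genes. Npy was counted both here and among the beta cell genes. Cartpt, which encodes the peptide CART, was a hormone gene that alpha cells lost: it read 703, 744 and 842 with DMSO and 106, 125 and 94.1 with GW8510, beside 85.3, 74.3 and 123 in treated beta cells. The name beta cells is thus kept for the line, whose arrays read Ins2, Iapp, Sst and Npy at or near the upper bound and Gcg at 5997 to 12890.

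Markers of cells that neither line should hold were set beside these. Of 13 acinar cell markers, 1 was higher in treated alpha cells (Cela1, log2 2.42) and 0 in treated beta cells, beside 27.5% and 30.4% of all genes. The same shares stand beside the other counts of this paragraph. The summed intensity of the acinar list was 1684 to 1905 and 1188 to 1298. Of 9 fibroblast markers 2 were higher in treated beta cells, led by Col1a2 (log2 -1.70), with sums of 652 to 768 in treated alpha and 830 to 994 in treated beta cells. Of 8 endothelial markers 1 was higher in treated alpha and 2 in treated beta cells, with sums of 562 to 724 and 917 to 1186. Of 9 immune cell markers 2 were higher in treated alpha cells, Cd14 (log2 0.45) and Cd3e (log2 0.30), with sums of 603 to 734 and 565 to 635, and Ptprc, the general leukocyte marker, was at the lower bound on all treated beta arrays and averaged 21.2 in treated alpha cells. Of 8 ductal cell markers Krt7 was higher in treated alpha cells (log2 2.73) and Anxa2 in treated beta cells (log2 -0.37). Their sums were 4519 to 4752 and 3263 to 3404, up from 3514 to 3607 and 1126 to 1152 with DMSO, and almost all of the sums lay in Krt7 and Anxa2, since Krt19, Cftr and Sox9 averaged 82.2, 26.8 and 107 in treated alpha cells. The part of such cells in the results was not tested.

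To ask what treated alpha cells had lost or gained across all genes, line genes were chosen on the DMSO arrays as those at least 4-fold apart at an adjusted p under 0.05, and read on the treated arrays, which took no part in the choice. Of 221 alpha line genes, 130 (58.8%) were at least 4-fold higher in treated alpha cells, 84 were higher by less than 4-fold, 3 did not pass (Cartpt, Dhx58 and Kcne1) and 4 were higher in treated beta cells (Serpina1c, Nupr1, Bnip3 and Adm). Of 290 beta line genes, 210 (72.4%) kept at least 4-fold, 76 were under it, 4 did not pass (Enc1, Crip2, Fam102a and Palld) and 0 crossed over. The medians went from 2.72 to 2.18 for alpha line genes and from -2.74 to -2.65 for beta line genes, on the log2 scale. Genes chosen for a large difference tend to be smaller on other arrays. Choosing on the treated arrays and reading on the DMSO arrays gave 130 of 229 kept for the alpha line (median 2.65 to 2.26) and 210 of 307 for the beta line (median -2.79 to -2.53). Some genes not covered by the naming rule, such as those in these counts, were named after their values were seen.

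The genes with the largest treated line differences were far apart with DMSO as well, except for Rgs5, Serpina1b and Slc2a2. Cps1, the first enzyme of the urea cycle, read 8026, 9331 and 8868 in treated alpha and 42.8, 41.7 and 51.9 in treated beta cells, a 193-fold difference (log2 7.59 ± 0.09 SE, adjusted p = 3.55e-14 by limma). Enpep, an aminopeptidase, widened from 79.5-fold to 153-fold as alpha cells rose to 3995, 3739 and 3778. Ppargc1a, a coactivator of mitochondrial genes, read 3572, 3590 and 3369 against 21.7, 27.3 and 30.4 (134-fold), and Sgk1, a kinase, was 107-fold higher in treated alpha cells. Lpl, lipoprotein lipase, was 64.5-fold higher despite a fall of 0.71 in alpha cells on the log2 scale. Also among the 12 largest were Grb10, Stag2, Sytl2, Cald1, Tesc, Car2 and Rgs5, with line differences of 5.64 to 6.28 on the log2 scale. On the beta side Cd24a, a surface glycoprotein, read 4268, 4545 and 4339 against 21.1, 22.0 and 20.6 in treated alpha cells (207-fold). Rnase4, Igf2, Rps4l, Serpina1b, Sytl4 and Prkar1a followed with line differences of -7.60 to -6.89. Probe sets disagreed for Grb10, whose others gave 0.67 to 1.43, and for Sytl4, whose other gave -0.25.

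Alpha line genes were lowered in alpha cells more often than they were raised. With GW8510, 126 of the 221 fell in alpha cells and 40 rose, beside 21.2% and 20.2% of all genes, and 60 fell at least 2-fold (27.1%, beside 2.43% of all genes). The median response was -0.41 on the log2 scale, beside 0.03 over all genes. The alpha DMSO arrays serve in both the choice and the response, which favours falls, so these are descriptions. The median alpha line gene covered 13.4% of its untreated distance to beta cells, 27 covered over 50% and 2, Nupr1 and Cartpt, covered all of it. Nupr1, a stress-induced chromatin protein, read 1534, 1516 and 1275 with DMSO, 144, 168 and 177 with GW8510, and 418, 377 and 459 in treated beta cells. Hk2, a hexokinase, fell from 2151, 2203 and 1969 to 643, 597 and 506, and Slc2a3, a glucose transporter, from 3093, 3399 and 3057 to 1125, 1044 and 939, and both stayed higher than in treated beta cells (log2 2.61 and 3.77). Other probe sets of Slc2a3 gave treated line differences of 0.07 to 2.95. In the beta line 73 alpha line genes rose and 22 fell, beside 19.7% and 14.3% of all genes.

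Gains of beta line genes were smaller in number. Of the 290, 94 rose in alpha cells and 33 fell, 30 rose at least 2-fold (10.3%, beside 2.61% of all genes), and the median response was 0.11. The median gene covered 3.95% of its untreated distance, 23 covered over 50% and 2, Crip2 and Blnk, covered all of it. Crip2, a LIM domain protein, read 143, 133 and 130 in alpha cells with DMSO and 757, 690 and 690 with GW8510, and treated beta cells read 779, 733 and 839 (line difference -0.14, adjusted p = 0.116 by limma). Blnk, a signalling adaptor, rose from 207, 241 and 198 to 924, 1039 and 946, but the beta line rose as well, to 2402, 2526 and 2587, so that a 2.58-fold line difference remained. Enc1, an actin-binding protein, rose from 274, 243 and 264 to 1886, 1912 and 1963, beside 1939, 1870 and 2148 in treated beta cells, where the lines overlapped. Its other 2 probe sets gave treated line differences of -0.66 and 0.24. Stard10, a lipid transfer protein, rose from 324, 305 and 332 to 1679, 1544 and 1560, against 5051, 5122 and 5396 in treated beta cells. The 5 beta line genes that fell at least 2-fold in alpha cells were C1qa, Ctnnd2, Mlxipl, Ankrd44 and Kcnmb2. Without alpha GW8510 replicate 1 the 30 rises became 33, and without beta GW8510 replicate 3 they stayed at 30.

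**Figure D3:**
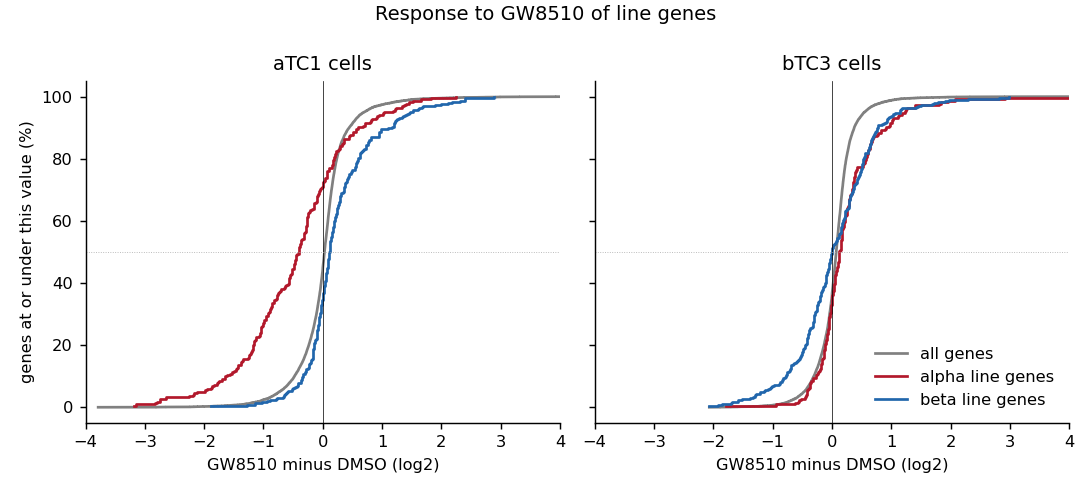
Cumulative share of genes (%) against the response to GW8510 (GW8510 minus DMSO, log2) in aTC1 cells (left) and bTC3 cells (right), for all genes, for 221 alpha line genes and for 290 beta line genes; the axis is cut at -4 and 4, beyond which a few genes lie. In aTC1 cells the alpha line genes lie to the left (median -0.41) and the beta line genes slightly to the right (median 0.11) of all genes (median 0.03). The alpha DMSO arrays also chose the genes, which by itself draws the curves apart.

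GW8510 opened gaps between the lines as well as closing them. A gap was called opened when a gene was at least 4-fold apart with GW8510, under 2-fold apart with DMSO, and its change passed, and closed in the reverse case. There were 48 opened gaps, 30 of them with alpha cells higher and 18 with beta cells higher, and 44 closed ones, 26 of genes that had been higher in alpha and 18 of genes that had been higher in beta cells. Alpha cells moved more than beta cells in 38 of the 48 and in 31 of the 44. Over all genes, a 2-fold response was called for 320 rises (2.61%) and 298 falls (2.43%) in alpha cells and for 147 (1.20%) and 83 (0.677%) in beta cells. These lists share arrays with one another and are given as counts.

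In each of the 10 genes whose line difference changed most toward alpha, alpha cells rose by more than beta cells moved. Rgs5, a regulator of G protein signalling known from pericytes, read 42.9, 45.6 and 42.9 in alpha cells with DMSO and 2604, 2354 and 2518 with GW8510, and treated beta cells stayed at 32.3, 28.2 and 35.9. The line difference was 1.56-fold with DMSO and 77.9-fold with GW8510 (change log2 5.64 ± 0.11 SE, adjusted p = 4.31e-11 by limma), and its other 3 probe sets gave treated line differences of 2.52 to 4.64 on the log2 scale. Aldh1l1, a folate enzyme, rose to 1549, 1688 and 1799 in alpha cells from 112, 110 and 103, although its other probe set gave a line difference of only 0.55. Nectin4, an adhesion molecule, rose from 50.7, 50.5 and 47.9 to 764, 732 and 791, with a treated line difference of 3.81, or 2.24 on its other probe set. Tek and Axl, receptor tyrosine kinases, Cd68, a lysosomal protein of macrophages, Acaa1b, a peroxisomal thiolase, and Ckmt1, a mitochondrial creatine kinase, followed with line differences of 3.20 to 3.87 with GW8510 and -0.43 to 0.67 with DMSO. Cntnap2 belongs to the 10 largest changes, but its other 2 probe sets gave treated line differences of -0.04 and 0.11.

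Toward the beta line, both cell lines contributed. Serpina1c crossed over: it read 1971, 1866 and 1670 in alpha and 123, 105 and 107 in beta cells with DMSO, and 361, 427 and 422 against 2431, 2115 and 2437 with GW8510 (change log2 -6.57 ± 0.13 SE, adjusted p = 4.31e-11 by limma). Serpina1b fell in alpha cells from 962, 959 and 969 to 67.6, 80.5 and 62.5, and rose in beta cells from 1814, 1520 and 1836 to 10180, 9247 and 10168. Both encode alpha-1-antitrypsin, of which mice have near-identical copies, so their signals cannot be assigned to one copy with certainty. Spp2, a secreted phosphoprotein, went from 3.36-fold higher in alpha cells to 7.69-fold higher in beta cells. Ndrg1, a stress and hypoxia response gene, fell in alpha cells from 5372, 5337 and 4819 to 449, 446 and 437 and was 7.58-fold higher in treated beta cells. Its other 4 probe sets gave line differences of 1.00 to 1.12 with DMSO and of -2.61 to -1.57 with GW8510. Selenbp1, a selenium-binding protein, fell from 128-fold to 9.19-fold higher in alpha cells. Ero1a, an oxidase of the endoplasmic reticulum, fell in alpha and rose in beta cells, to 365, 331 and 319 against 4301, 4134 and 4136, while its other probe sets gave line differences of 1.10 and 1.22 with DMSO and of -2.0 and -1.91 with GW8510.

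**Figure D4:**
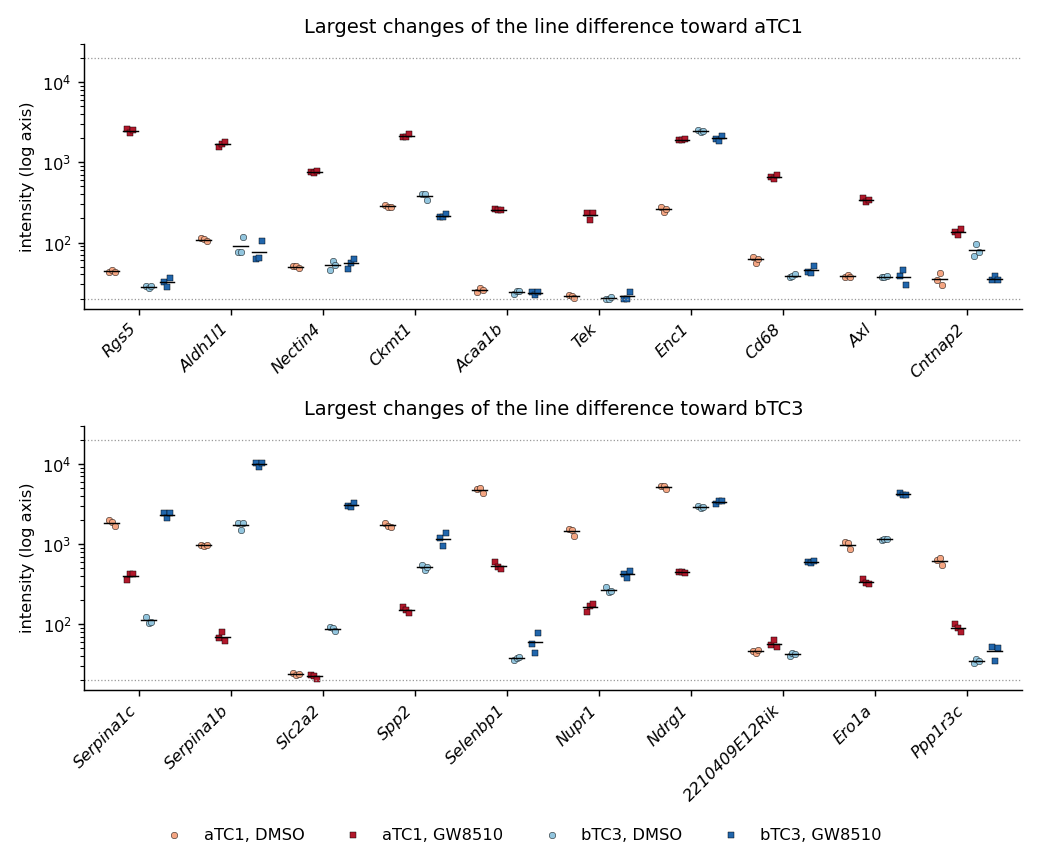
Intensity on each array (points, log axis) with the group mean (bar) for the 10 genes whose line difference changed most toward aTC1 (upper panel) and the 10 whose line difference changed most toward bTC3 (lower panel), with 3 arrays per group and dotted lines at the bounds of 20 and 20000. In the upper panel the treated aTC1 arrays (dark red squares) rise above the untreated aTC1 arrays, as for Rgs5 at 2354 to 2604. For Enc1 this rise brings them to the level of the treated bTC3 arrays. In the lower panel aTC1 arrays fall, bTC3 arrays rise, or both do so, as for Serpina1c.

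Of the 22 measured transcription factors shared by both cell types, 6 were higher in treated alpha and 8 in treated beta cells, beside 27.5% and 30.4% of all genes, and 8 did not pass. Their line difference changed toward beta in 7 and toward alpha in 1, beside 16.4% and 12.0% of all genes. Both shares of all genes depended on the scaling. Insm1, a zinc finger factor of endocrine cells, read 347, 383 and 366 in treated alpha and 3355, 3305 and 3506 in treated beta cells (log2 -3.21). Pax6 fell in alpha cells from 990, 1006 and 1002 to 495, 539 and 522 and was 6.51-fold higher in treated beta cells, where it read 3255, 3344 and 3536 (adjusted p = 1.65e-12 by limma). Its other 4 probe sets gave treated line differences of -3.12 to -0.04. Nkx2-2 fell as well, from 1292, 1272 and 1456 to 556, 531 and 540, which opened its line difference from -0.38 to -1.26 on the log2 scale. Hnf4a (log2 -2.53) and Foxa1 (log2 -1.05) were higher in treated beta cells, and Gata6 (log2 1.21) and Prox1 (log2 0.86) in treated alpha cells. Other probe sets of Hnf4a gave -3.06 to 0.00.

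Among 16 prohormone processing and granule genes, 11 were higher in treated beta cells, 3 were higher in treated alpha cells and 2 did not pass, beside 30.4% and 27.5% of all genes, with a median line difference of -0.46, beside -0.76 with DMSO. Pcsk1, Ero1b, Nucb2 (log2 -2.82) and the granule proteins Scg3 (log2 -2.55), Chgb (log2 -1.42) and Scg5 (log2 -1.07) were on the beta side. Resp18, a granule protein, had line differences of 0.03 with DMSO and 0.82 with GW8510, as it fell to 3872, 4046 and 4021 in treated beta cells. Of 33 exocytosis genes, 16 were higher in treated beta, 9 in treated alpha cells and 8 did not pass, beside the same shares of all genes, and the median line difference was -0.17. Cplx1, a complexin that clamps the fusion machinery, was higher in treated alpha cells at 8022, 7877 and 7543 against 583, 482 and 551 (log2 3.86). Vamp8 (log2 -3.67) and Stx3 (log2 -2.32, with other probe sets at -0.80 and -0.59), SNARE proteins of vesicle fusion, were higher in treated beta cells. Rab27b, a granule-docking small GTPase, fell in alpha cells from 341, 318 and 324 to 95.0, 132 and 133 and stayed higher there (log2 1.54).

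Excitability and glucose sensing genes fell in alpha cells more often than they rose. Of 24 measured, 14 fell and 1 rose there, beside 21.2% and 20.2% of all genes, with a median response of -0.34. In beta cells 8 fell and 3 rose, beside 14.3% and 19.7% of all genes. Between the treated lines 9 were higher in beta and 7 in alpha cells, beside 30.4% and 27.5% of all genes, and 8 did not pass. Abcc8, the sulfonylurea receptor of the potassium channel that couples glucose to secretion, read 1027, 1042 and 985 in treated alpha cells, down from 1647, 1608 and 1706, and 2989, 3013 and 3284 in treated beta cells (log2 -1.60). Kcnk3, a leak potassium channel, fell in alpha cells by 1.38 and stayed higher there (log2 1.55, with other probe sets at 0.31 and 0.36). Atp2a3, a calcium pump, rose in beta cells by 1.14 and had a treated line difference of -3.11, or -0.93 on another probe set. Of 20 receptors for islet hormones and nutrients, 7 were higher in treated beta and 2 in treated alpha cells, beside 30.4% and 27.5% of all genes, and 11 did not pass. Galr1, the galanin receptor, read 1995, 1832 and 2126 in treated beta cells against 120, 109 and 69.9 (log2 -4.35, with another probe set at 0.00), and the purine receptor P2ry1 (log2 -2.86) and Glp1r, the GLP-1 receptor (log2 -2.35), were on the same side.

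Of 17 genes kept silent in mature beta cells, 8 were higher in treated alpha and 5 in treated beta cells, beside 27.5% and 30.4% of all genes, and 4 did not pass. With DMSO 9 and 2 were, beside 28.9% and 26.8% of all genes. The line difference changed toward beta in 6 and toward alpha in 2, beside 16.4% and 12.0%, shares that depended on the scaling. Slc16a1, the lactate and pyruvate transporter MCT1, read 3772, 4346 and 4456 in treated alpha cells and 310, 285 and 285 in treated beta cells (log2 3.83). Ldha, lactate dehydrogenase, read 7381, 6977 and 6482 against 4332, 4051 and 4763, and its line difference went from 7.30-fold to 1.59-fold as the beta line rose from 1113, 1105 and 1619 (log2 1.80) and the alpha line fell by 0.40 on the log2 scale. Oat, ornithine aminotransferase, was higher in beta cells (log2 -2.81).

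Target genes of p53, the tumour suppressor that halts the cell cycle after DNA damage, went from an even split to the alpha side. With DMSO, 16 of 33 were higher in alpha and 12 in beta cells, beside 28.9% and 26.8% of all genes, with a median line difference of 0.10. With GW8510 the counts were 25 and 5, beside 27.5% and 30.4% of all genes, with a median of 1.59. The list holds genes the study itself took up on these samples, so it is not independent evidence of its direction. In alpha cells 26 of the 33 rose and 5 fell (median 1.13), beside 20.2% and 21.2% of all genes. In beta cells 13 rose and 3 fell (median 0.10), beside 19.7% and 14.3%. Ccng1, cyclin G1, read 1648, 1660 and 1597 in alpha and 1755, 1735 and 1651 in beta cells with DMSO, where the lines overlapped, and 11337, 11393 and 12103 against 2185, 2241 and 2270 with GW8510 (line difference log2 2.38 ± 0.05 SE, adjusted p = 2.5e-12 by limma). Cdkn1a, the cell cycle inhibitor p21, was 1.5-fold higher in beta cells with DMSO and 2.38-fold higher in alpha cells with GW8510, at 10892, 10348 and 10817 against 4303, 4224 and 4982. Trp53inp1 read 7460, 7808 and 9070 in treated alpha and 1000, 925 and 940 in treated beta cells (log2 3.08), and Mdm2, which degrades p53, 3035, 3216 and 3348 against 922, 805 and 886 (log2 1.88). Perp, a desmosomal protein, went the other way: it read 1288, 1409 and 1022 in treated beta cells, up from 158, 156 and 150, and 31.5, 35.8 and 32.1 in treated alpha cells (log2 -5.21). Cd82, Tnfrsf23, Ddb2 and Plk3 were likewise higher in treated beta cells, with line differences of -2.42 to -0.85, and Tnfrsf10b, Gadd45a and Epha2 did not pass.

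Genes of the G2 and M phases were lower in treated alpha cells. Of 37 members, 33 were higher in treated beta cells, beside 30.4% of all genes, and 4 did not pass (Cenpe, Bub1b, Cenpf and Cks2). With DMSO 30 were already higher in beta and 4 in alpha cells, beside 26.8% and 28.9% of all genes. The median line difference went from -0.46 to -0.88. Responses in alpha cells were 26 falls and 4 rises (median -0.33), beside 21.2% and 20.2% of all genes. Those in beta cells were 6 falls and 11 rises (median 0.06), beside 14.3% and 19.7%. Anln, an actin-binding protein of the cleavage furrow, read 1231, 1261 and 1178 in alpha cells with DMSO and 609, 633 and 600 with GW8510, against 1701, 1742 and 1838 in treated beta cells (log2 -1.52). Nusap1, a spindle protein (log2 -1.57, with another probe set at 0.20), and Kif20a, a mitotic kinesin (log2 -1.54), had the largest line differences of the list. Kif20a had a response of -0.07 in alpha cells, which did not pass, and rose in beta cells by 0.54.

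Of 26 interferon and antigen presentation genes, 17 were higher in treated beta and 4 in treated alpha cells, beside 30.4% and 27.5% of all genes, and 5 did not pass, with a median of -0.67, beside -0.44 with DMSO. B2m, the light chain of class I molecules, narrowed, from 282, 246 and 252 to 1015, 930 and 958 in alpha cells, against 5770, 5829 and 6264 in treated beta cells. It stayed 6.16-fold lower, down from 19.7-fold. H2-D1 (log2 -4.49) and H2-K1 (log2 -2.66), the class I heavy chains, and Psmb8, an immunoproteasome subunit (log2 -3.36), were higher in treated beta cells. The heavy chain genes are close copies whose probe sets may read one another, and other probe sets of H2-D1 gave -4.75 to 0.09. In alpha cells 11 members rose and 2 fell, beside 20.2% and 21.2% of all genes. In beta cells 9 rose and 4 fell, beside 19.7% and 14.3%.

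**Figure D5:**
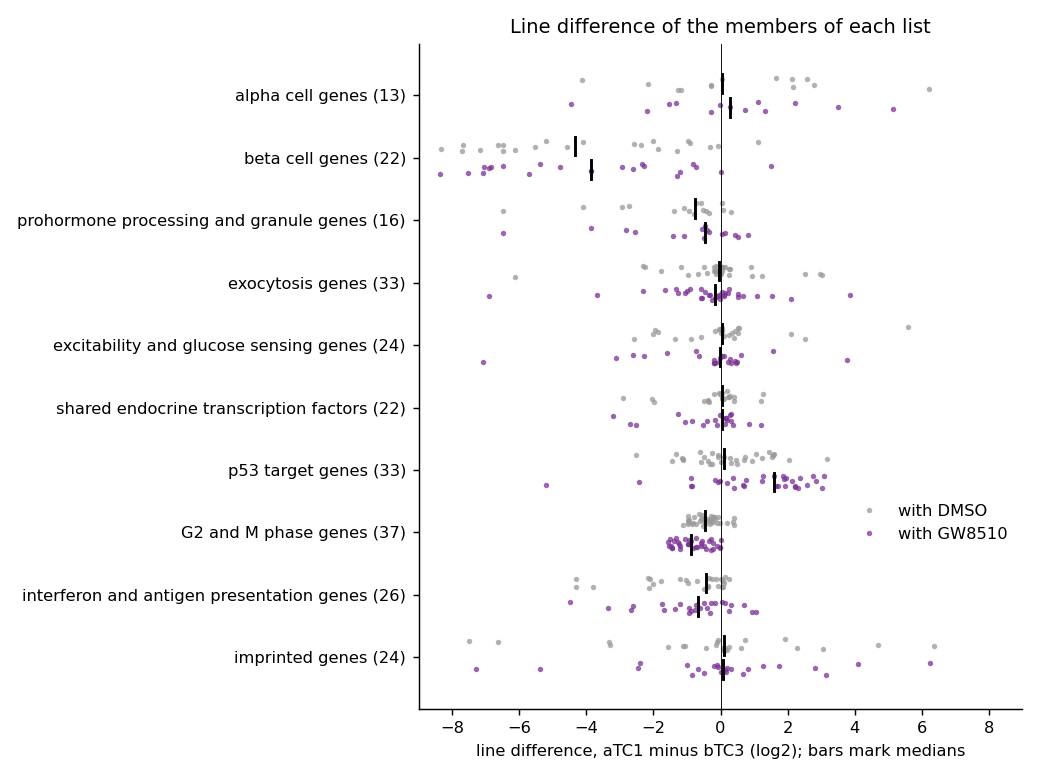
Line difference (alpha minus beta, log2) of each measured member of the gene lists, with DMSO (grey) and with GW8510 (purple); black bars mark medians and the number after a list name is its measured members. Beta cell genes lie far to the left in both conditions (medians -4.34 and -3.85). The p53 target genes shift to the right with GW8510 (median 0.10 to 1.59) and the G2 and M phase genes to the left (median -0.46 to -0.88).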

How the data were processed

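RNA of aTC1 and bTC3 cells given GW8510 or DMSO was read on 12 Affymetrix arrays. The authors deposited linear intensities, for which the submitters' processing notes name RMA with no version, bounded at 20 and 20000 by an unstated step. The log2 was taken with no pseudocount. Of 22690 probe sets, 20380 carry 1 gene symbol in the platform annotation, 691 several, 1555 none and 64 are controls. Those that never left a bound (330 with 1 symbol) were dropped, and the one with the highest mean was kept per gene. This left 12255 genes, 4854 of which had several probe sets. Medians of the 12 arrays were 173.5 to 199.7, and the number of arrays limits precision (median SE of the treated line difference 0.08).

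Group means of all 12 arrays were fitted with limma 3.58.1 in R 4.3.3, with contrasts, empirical Bayes (prior 3.52 and residual 8 degrees of freedom) and Benjamini-Hochberg adjustment over all genes. Tables were joined in Python 3.11.15. The fit was run on simulated normal values with no bounds and few line differences, which checks the code and not how well the model holds for these data. Groups follow titles; another label writes the compound as GW8511 or GW8512 for treated replicates 2 and 3. Replicate numbers did not pair the arrays (same-number correlations of treated arrays 0.0086, 0.14 and -0.14). At an array bound a fold is a limit, and a group at the lower bound was taken at 20. A group with all its arrays at a bound adds no spread to the fit, so its SE and p-value may be too small.

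Named genes are the 12 largest treated line differences and 10 largest changes each way among genes past the test (for the differences, with arrays that do not overlap), all measured alpha and beta cell genes, up to 4 members of every other list with the largest treated line differences, and Ins2, Gcg, Pdx1 and Pax6. Others were named after their values were seen. Members and lists were chosen with earlier results of these data known. Alternatives covered scaling, choice of probe set, a filter on dim genes, a pseudocount, arrays in the fit, estimate of spread, array weights, a replicate block, the fold for line genes and each array left out. Not analysed here: Gapdh, Ins1, Trp53 and Bax.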

Additional observations from a re-analysis of the deposited data

Results flagged for a closer look

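In 20 genes the line difference changed more between DMSO and GW8510 than in any other gene in that direction, by the interaction test in limma. Toward alpha cells the changes on the log2 scale were 5.64 for Rgs5, 4.19 for Aldh1l1, 3.86 for Nectin4, 3.75 for Ckmt1, 3.35 for Acaa1b, 3.29 for Tek, 3.19 for Enc1, 3.19 for Cd68, 3.19 for Axl and 3.12 for Cntnap2. Toward beta cells they were -6.57 for Serpina1c, -6.31 for Serpina1b, -5.21 for Slc2a2, -4.69 for Spp2, -3.80 for Selenbp1, -3.79 for Nupr1, -3.75 for Ndrg1, -3.51 for 2210409E12Rik, -3.40 for Ero1a and -3.18 for Ppp1r3c. Single outlying arrays were not searched for, since every group has 3. Among these genes the probe sets of Rgs5, Aldh1l1, Nectin4, Enc1 and Cntnap2 disagreed, as given with their values. Those of Ero1a disagreed in direction with DMSO, with line differences of -0.23 against 1.10 and 1.22. Other probe sets of Ndrg1 gave treated line differences of -2.61 to -1.57, against -2.92. The other probe set of Ppp1r3c gave a response of -0.80 in alpha cells against -2.79.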

How the results depend on the processing

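Of 504 counts recomputed under the alternatives, 483 stayed within 1.5 times and 21 moved. With a pseudocount of 16, 2 beta line genes fell at least 2-fold in alpha cells instead of 5, and array weights gave 2280 changes toward alpha. Line genes chosen at 2-fold were 875 for alpha (615 kept, 204 under it, 51 up and 112 down in alpha cells) and 967 for beta (725, 202, 79 and 23). At 8-fold they were 90 (55 kept, 34 under, 28 down) and 117 (91 kept, 25 under, 10 up, 3 down). Leaving out 1 array at a time gave 3098 to 3618 and 3433 to 3811 treated calls for alpha and beta, 222 to 241 and 297 to 315 at 4-fold, and with DMSO 3222 to 3767 and 3078 to 3398. Changes ran from 1231 to 1775 toward alpha and 1675 to 2124 toward beta. Alpha line genes were 215 to 227 (125 to 131 kept, 80 to 89 under, 12 to 13 up, 57 to 64 down) and beta line genes 287 to 294 (205 to 215, 71 to 81, 28 to 35, 4 to 6). Quantile scaling gave 3785 and 3697 treated calls and median centring 4052 and 3399, so which line had more depended on the scaling. The excess of changes toward beta depended on it too, with 1958 toward alpha and 1932 toward beta by quantile scaling. Median centring gave 1827 and 1829. With the replicate block, treated calls were 3299 and 3666 and changes 1374 and 1852, with no pairing in the labels or the arrays. Of 5139 values for named genes and lists, 4999 stayed on their side, 51 moved, 33 no longer passed, 56 newly passed and 0 reversed. The treated line difference of Ttr passed with the mean of all probe sets (-0.54), and the change of Iapp, 0.96, did not pass with a probe set under the upper bound. The cause was not tested.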

Other observations

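Imprinted genes, which are read from the copy of one parent, were higher in treated alpha cells in 9 of 24 cases and in treated beta cells in 8, beside 27.5% and 30.4% of all genes. Igf2, a fetal growth factor, read 96.8, 113 and 69.3 in treated alpha and 16082, 16190 and 11436 in treated beta cells, and its line difference was -7.30 with GW8510 and -7.49 with DMSO. Grb10, a growth factor receptor adaptor, read 2817, 3091 and 2871 against 39.7, 33.2 and 42.3 (log2 6.26, with other probe sets at 0.67 to 1.43). Mest, a hydrolase (log2 4.09), and Ndn, necdin (log2 3.13, with other probe sets at 0.01 to 5.72), were higher in treated alpha cells. Among sex chromosome genes Eif2s3y, on the Y chromosome, read 702, 903 and 1190 in treated alpha cells and 20, 20 and 20.2 in treated beta cells. Xist, which silences an X chromosome, read 125, 102 and 96.0 against 498, 526 and 655 (log2 -2.37).

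Of 26 secreted genes of the liver type, 5 were higher in treated alpha and 7 in treated beta cells, beside 27.5% and 30.4% of all genes. With DMSO 9 and 3 were, beside 28.9% and 26.8%. Selenop, the selenium carrier of plasma, rose in both, from 162, 156 and 161 to 3295, 3468 and 3472 in alpha cells and from 45.6, 43.6 and 59.3 to 444, 348 and 426 in beta cells. Its line difference was 1.70 with DMSO and 3.08 with GW8510. Fabp2, a fatty acid binding protein, read 989, 960 and 930 in treated alpha and 45.5, 54.8 and 50.6 in treated beta cells (log2 4.26, beside 1.17 with DMSO). Apof, apolipoprotein F, fell in alpha cells from 1192, 1248 and 1350 to 161, 216 and 189, and its line difference went from 3.89 to 1.31.

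Of 31 Notch, Wnt and BMP genes, 10 were higher in treated alpha and 6 in treated beta cells, beside 27.5% and 30.4% of all genes. Fzd6, a Wnt receptor, read 1964, 1784 and 2100 in treated alpha and 84.9, 80.0 and 82.4 in treated beta cells (log2 4.56, with another probe set at 1.39). Wnt4, a ligand, read 5743, 5796 and 5297 against 435, 426 and 524 (log2 3.61), close to its 3.53 with DMSO. Among 28 cell adhesion genes, 5 were higher in treated alpha and 9 in treated beta cells, beside the same shares. Itga6, an integrin subunit, rose in alpha cells to 1436, 1271 and 1207 from 300.4, 314 and 313, which took its line difference from 1.20 to 2.43.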
